A study of Mus musculus with 5 samples.

Results

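Many mouse genes are represented on an expression array by several probes, each a short oligonucleotide that reads its own stretch of the transcript. Here 152 genes were described whose probes gave different answers when B16F1 melanoma cells under TGF-β1 also received CCG1423. For each probe the log2 level on the array with CCG1423 was set against that on the TGF-β1 array, and a gene was taken if its probes spanned at least 1.5 log2 units in that difference (the range). Only probes well above background on both arrays counted, and 4733 genes had 2 or more of them, so the 152 genes were 3.21% of the genes that could be judged. They carried 390 measured probes. The genes were chosen by the measured values of these 2 arrays, which are therefore given for them as a description with no test. The widest ranges were in Tmem120b (4.67), Parpbp (4.28), Dido1 (4.27) and Nf2 (3.89), and Arhgap21 (3.47) and Sfpq (3.44) were among the 10 widest. After normexp background correction the number of discordant genes was 62, and the range of Tmem120b was 2.71, below those of Sfpq (3.25), Arhgap21 (3.22) and Rxra (3.09). With both probes at or above the median level, 18 of 1853 genes were discordant.

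A gene can make several RNAs through alternative start sites, alternative splicing and alternative 3′ ends, and a probe reads only the RNAs that hold its target. The probes of a gene can therefore move apart when the mix of its RNAs changes, and also when a probe reads RNA of another gene or a neighbouring transcript. CCG1423 is a small molecule used to inhibit MRTF, the actin-regulated coactivator of SRF that drives many cytoskeletal genes. Tmsb4x encodes thymosin β4, a peptide that binds monomeric actin, and TGF-β1 is a cytokine that acts through SMAD transcription factors.

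The series held 5 one-colour arrays, 1 per culture of B16F1, a mouse melanoma cell line. Wild-type cells given 10 ng/ml TGF-β1 and 10 µM CCG1423 had 1 array, Tmsb4x knockout cells given 10 ng/ml TGF-β1 had 1 array from each of 2 clones, and wild-type cells given TGF-β1 alone and wild-type cells given vehicle had 1 array each. TGF-β1 was given for 2 days. The treatment field of the CCG1423 array names that compound only, while its title names both agents, and the series text speaks of knockdown where the sample labels say knockout. With 1 array per wild-type condition there is no replicate error for any wild-type difference, the clones are the only replicates, and nothing says whether the cultures were grown separately.

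The share of probes well above background was 50.4% to 55.7% per array, and no spot was saturated. The 75th percentile signal, to which all levels are relative, was lowest on the CCG1423 array, at 230 units, against 281 to 329 units on the other arrays. The probe for Tmsb4x had levels of 5.44 and 4.28 in the clones, against 7.12 in wild-type cells with TGF-β1 and 5.05 with vehicle. Whether it lies in the altered part of the gene is not known, so it does not check the knockout. All 7 melanocyte markers were well above background on all 5 arrays, while of 17 markers of immune, fibroblast, epithelial and endothelial cells 13 were not on any. Cd68 and Cd3e were on all 5, Pecam1 on 4 and Lum on 1, the vehicle array.

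Disagreement between probes was most frequent in the pairs of arrays that included CCG1423. Among 4478 genes with at least 2 probes well above background on all 5 arrays, every pair of arrays was compared by the same rule. The pairs with the CCG1423 array gave 118 discordant genes against TGF-β1, 128 against vehicle, 101 against clone 1 and 137 against clone 2. The 6 pairs without it gave 18 to 37, of which clone 1 against clone 2 gave 26. Taken each over the genes measurable on its own 2 arrays, the rule gave 148 genes for CCG1423 against vehicle (3.16% of 4690), 51 for TGF-β1 against vehicle (1.04% of 4885) and 37 for clone 1 against clone 2 (0.803% of 4607). The last comparison shares no array with the rule, and 4 of its 37 genes (10.8%) were among the 152 (2.63%): Ptpn13, Cdc14b, Nsd3 and Hnrnpr. Only 28 of the 37 genes had enough measured probes for the rule, and 131 of the 152 had enough on the clone arrays. Shares over the genes measurable in both comparisons were not computed, so nothing is read from the overlap. The probes with the highest and lowest difference with CCG1423 were themselves 1.61 apart between the clones in Ptpn13 and 3.87 in Cdc14b. In Nsd3 and Hnrnpr they were only 0.40 and 0.83 apart, so other probes made these genes discordant between the clones. The pairs of arrays overlap, and the CCG1423 condition rests on 1 array, so its own array-to-array error is not in these counts.

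**Figure D1:**
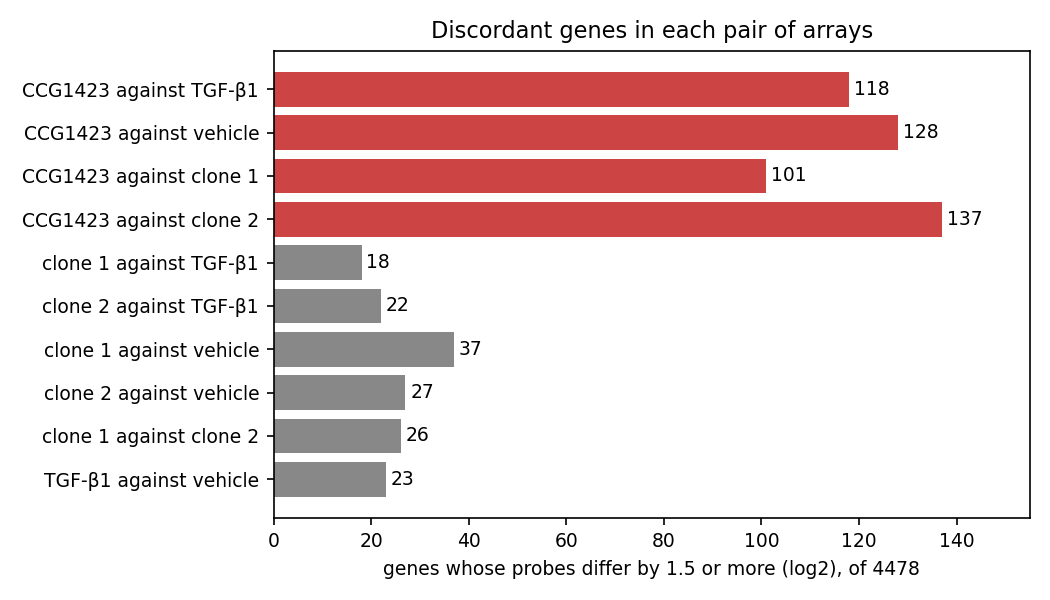
Number of genes, of 4478 with at least 2 probes well above background on all 5 arrays, whose probes differ by 1.5 log2 units or more between 2 arrays; each bar is a pair of arrays. The 4 pairs with the CCG1423 array (red) reach 101 to 137 genes, and the 6 pairs without it (grey) reach 18 to 37.

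To find which array stood apart, the gap of a gene was taken on each array as the level of its probe with the highest difference minus that of its probe with the lowest. Probes of unlike sequence cannot be compared in absolute level, so only changes of this gap between arrays were read. In 111 of the 152 genes the gap with CCG1423 lay 1 or more above the gap on vehicle and on both clone arrays. Over all 4733 genes the same was true of 3.82%. The vehicle and clone arrays had no part in the rule, but the CCG1423 level did, so the choice of genes raises this count and it is a description. In 9 genes it was the TGF-β1 array that lay 1 or more below these 3 arrays (0.444% of all genes), and in 32 neither array met that mark. In the 118 genes whose extreme probes were well above background on all 5 arrays, the counts were 88, 4 and 26. These counts too are a description, and the shares over all genes under that filter were not computed. The gap was highest on the CCG1423 array in 141 of the 152 genes, against 59.5% of all genes, a share that the choice of genes raises.

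**Figure D2:**
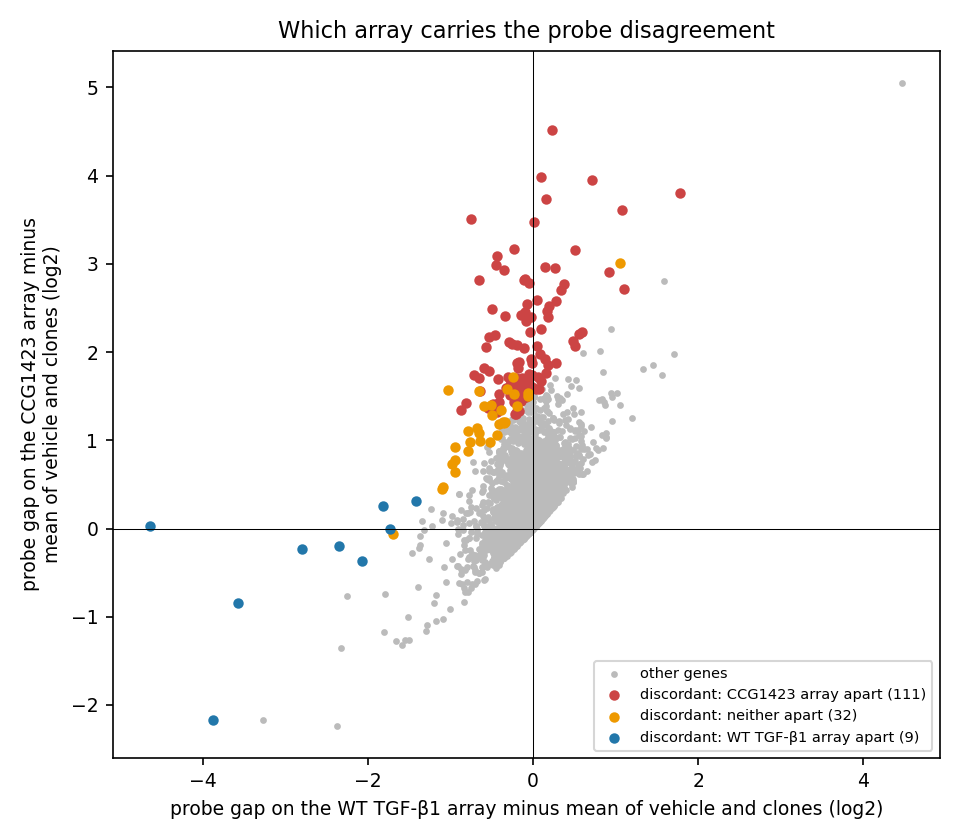
Probe gap of each gene on the CCG1423 array (vertical) and on the wild-type TGF-β1 array (horizontal), both minus the mean gap of the vehicle and clone arrays, in log2 units; each point is a gene. The 111 red genes lie high on the vertical axis and mostly near 0 on the horizontal one, the 9 blue genes lie to the left, and most of the 32 orange genes are between; grey points are the other genes.

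Arhgap21, which encodes a protein of the Golgi and cell junctions, showed the pattern plainly. Its probe A_55_P2400691 had a level of 0.39 with CCG1423, against 3.61 and 4.13 in the clones, 3.99 with TGF-β1 and 3.57 with vehicle. The second probe, A_55_P2505341, had 0.96 with CCG1423, against 0.68 and 1.15 in the clones, 1.08 with TGF-β1 and 0.75 with vehicle. The difference between CCG1423 and TGF-β1 alone was therefore -3.59 for the first probe and -0.12 for the second, which is smaller than the difference between the clones.

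Sfpq, an RNA-binding protein of paraspeckles that acts in splicing and transcription, had 3 measured probes whose differences were graded, at -3.48, -1.31 and -0.05. A_55_P2128451 had 0.52 with CCG1423, against 3.41 and 3.61 in the clones, 4.0 with TGF-β1 and 3.89 with vehicle. For A_55_P2629183 the levels were 1.70 with CCG1423, against 2.47 and 2.79 in the clones, 3.01 with TGF-β1 and 3.06 with vehicle. A_55_P2517378 stayed between 2.24 and 2.48 on all 5 arrays. The CCG1423 array was the lowest of the 5 for all 3 probes, but by 0.05 only for the last.

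**Figure D3:**
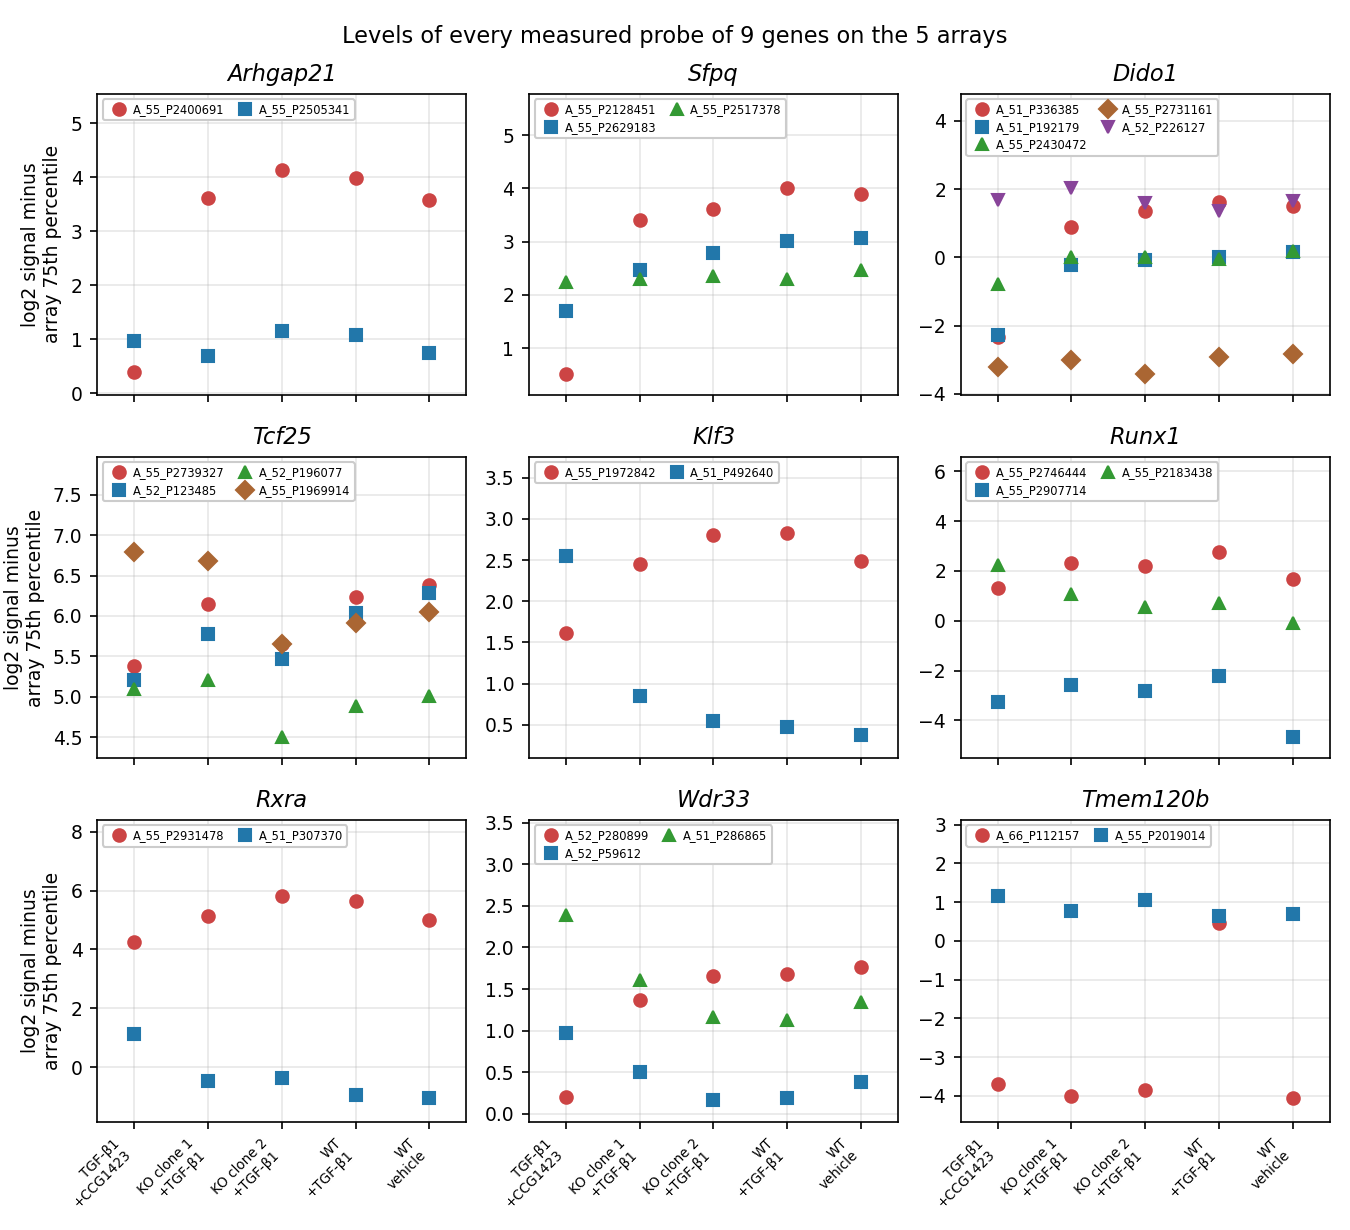
Level (log2 signal minus the array's 75th percentile) of every measured probe of 9 genes on the 5 arrays; each symbol is a probe and each column 1 array. Heights of different probes cannot be compared, only how each moves across arrays: in Arhgap21, Sfpq and Dido1 some probes are low with CCG1423 while another keeps its level, in Klf3, Runx1, Rxra and Wdr33 probes move opposite ways, and in Tmem120b 1 probe is high on the TGF-β1 array alone.

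Over the 152 genes, the extreme probes were sorted by whether they differed 2-fold or more with CCG1423 against TGF-β1 alone. Such a probe is called moved here, with no test behind the word. In 70 genes only the highest probe had, upward, and in 58 only the lowest, downward. Both had moved in opposite directions in 11 genes, both upward in 2 (Kifc2 and Cabp1) and both downward in 1 (Epb41l3), and in 10 neither had reached 2-fold. Over all 4733 genes, only the highest probe had moved upward in 4.67% and only the lowest downward in 5.41%. Both had moved in opposite directions in 0.232%, both upward in 1.92% and both downward in 2.07%, and neither had in 85.7%. The rule used these same differences, so the shares are a description. Taken singly, 5.12% of all 27170 measured probes were 2-fold higher and 5.08% were 2-fold lower. Where only 1 probe stands for a gene, the call then depends on which: by the brightest probe of each gene, 8 of the 152 genes were 2-fold higher, 33 were 2-fold lower and 111 were under 2-fold. The shares over all genes by their brightest probes were not computed, so nothing is read from the balance of these counts.

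The 59 genes with 3 or more measured probes had 86 further probes between their extremes. Of these, 54 lay nearer the lowest difference and 32 nearer the highest. The rule used these differences and the shares over all genes were not computed, so nothing is read from these counts. Dido1, a PHD-finger chromatin protein, had 5 probes, with differences of -3.95, -2.29, -0.73, -0.30 and 0.32. Its probe A_51_P336385 had a level of -2.33 with CCG1423, against 0.88 and 1.35 in the clones, 1.62 with TGF-β1 and 1.52 with vehicle. A_52_P226127 ranged from 1.36 to 2.02 over the 5 arrays, with 1.69 on the CCG1423 array inside that span. Thus 2 of the 5 Dido1 probes were much lower on the CCG1423 array and the others much less so. In Gabpb1, a subunit of the GABP transcription factor, 3 probes were 1.18 to 1.47 higher with CCG1423 than with TGF-β1, while A_55_P2066409 had 1.84 with CCG1423, against 2.29 and 2.19 in the clones, 2.27 with TGF-β1 and 2.18 with vehicle. Nsd3, a histone methyltransferase, had the reverse proportion, with 3 probes between -0.18 and 0.16 and 1 at 1.58.

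By what their proteins do, 96 of the 152 genes were placed by hand in 8 groups, formed after their values were seen. The share of all 4733 genes in each group was not determined, so nothing is read from the group sizes. Over all 152 genes the CCG1423 array was apart in 73.0%, and the group counts below are descriptions beside that share. The largest, transcription and chromatin, had 31 genes, of which 21 were genes with the CCG1423 array apart. In 14 of the 31 only the highest probe had moved, in 10 only the lowest, and in 5 both had moved opposite ways. Klf3, a zinc-finger repressor, was 1 of the 5. Its probe A_51_P492640 had 2.55 with CCG1423, against 0.85 and 0.54 in the clones, 0.48 with TGF-β1 and 0.38 with vehicle. A_55_P1972842 of the same gene had 1.61 with CCG1423, against 2.45 and 2.80 in the clones, 2.82 with TGF-β1 and 2.49 with vehicle. On the CCG1423 array the first probe was above, and the second below, all 4 other arrays.

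Runx1, a DNA-binding transcription factor transcribed from alternative promoters, behaved alike with CCG1423 but also moved with TGF-β1. A_55_P2183438 had 2.25 with CCG1423, against 1.09 and 0.54 in the clones, 0.73 with TGF-β1 and -0.11 with vehicle. A_55_P2746444 had 1.31 with CCG1423, against 2.32 and 2.19 in the clones, 2.78 with TGF-β1 and 1.67 with vehicle. Both of these probes were higher with TGF-β1 than with vehicle, by amounts that moved their gap by less than the CCG1423 array did. Rxra, the retinoid X receptor that pairs with other nuclear receptors, had a probe at 1.12 with CCG1423, against -0.46 and -0.38 in the clones, -0.95 with TGF-β1 and -1.06 with vehicle. A_55_P2931478 of Rxra had 4.26 with CCG1423, against 5.12 and 5.81 in the clones, 5.65 with TGF-β1 and 5.0 with vehicle. Zhx1, a homeobox repressor, and Usf3 completed the 5, with differences of 2.17 and -1.24 for Zhx1 and of 1.08 and -1.29 for Usf3. Among genes in which 1 probe moved, Tfpt, a subunit of the INO80 remodeller, had 1.97 with CCG1423 for A_55_P2030128, against 0.09 to 0.19 on the other 4 arrays. Its other probe had 1.05, against 1.34 to 1.57. Crebzf, a bZIP protein, went the other way, with 0.18 for A_66_P115531, against 1.37 to 1.75, and 1.23 for A_52_P455295, against 0.92 to 1.04.

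Tcf25, counted in no group, had 4 probes that split. With CCG1423 against TGF-β1 the difference was -0.85 for A_55_P2739327, -0.83 for A_52_P123485, 0.21 for A_52_P196077 and 0.88 for A_55_P1969914. For the last, clone 1 resembled the CCG1423 array, with 6.80 with CCG1423, 6.68 in clone 1 and 5.65 in clone 2, against 5.91 with TGF-β1 and 6.05 with vehicle.

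RNA-binding and RNA-processing proteins contributed 7 genes, all with the CCG1423 array apart, and in 5 of them only the lowest probe had moved. Wdr33, the subunit of the cleavage and polyadenylation complex that reads the AAUAAA signal, had probes that moved opposite ways. A_51_P286865 had 2.40 with CCG1423, against 1.61 and 1.17 in the clones, 1.12 with TGF-β1 and 1.35 with vehicle. A_52_P280899 had 0.21, against 1.37 and 1.65 in the clones, 1.69 with TGF-β1 and 1.76 with vehicle. Tardbp, which encodes the RNA-binding protein TDP-43, is known to control its own mRNA through splicing and polyadenylation in its 3′ region. A_55_P1980180 of Tardbp had 5.21 with CCG1423, against 6.43 and 6.09 in the clones, 6.38 with TGF-β1 and 6.41 with vehicle. A_55_P2005135 of Tardbp had 0.77, against -0.13 to 0.06 on the other arrays, and A_65_P00882 lay within 2.09 to 2.27 on all 5. Hnrnpa1, a splicing regulator, had differences of -1.03 and -0.99 for 2 probes and of 0.49 for A_52_P232433. Hnrnpr had 4 probes at -0.51 to 0.01 and 1 probe at 1.24, which was not well above background in clone 2. Adar, the enzyme that edits adenosines in double-stranded RNA, had differences of -1.73 and -0.06.

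Lists of pathway genes were set beside the 3.21% of all genes that were discordant. Of 31 hnRNP and paraspeckle genes, 25 had enough measured probes and 4 of these were among the discordant genes (Sfpq, Tardbp, Hnrnpr and Hnrnpa1), that is 16%. These 4 had 3 to 5 measured probes each. Over all genes the discordant share was 2.52% with 2 measured probes and 20.7% with 5 or more. After normexp correction the ranges of Hnrnpr (1.08) and Hnrnpa1 (1.39) fell below 1.5. Sfpq was also named in advance, so nothing is read from the 16%. The median range of the 25 was 0.14, against 0.19 over all 4733 genes. Of 12 measurable cleavage and polyadenylation genes, Wdr33 alone was discordant (8.33%), and the median range of the 12 was 0.86. None of 10 SR proteins and relatives, of 7 CLK, DYRK and SRPK kinases or of 4 nonsense-mediated decay genes reached the threshold. In lists this short a count of 0 is near the share over all genes, so nothing is read from it, here or for the lists that follow. The count was also 0 for 10 MRTF-SRF cytoskeletal targets, in which the widest range was 1.29 (Pdlim5), and of 7 TGF-β and SMAD targets. No measurable gene of the lists for the interferon response (6), the integrated stress response (9), sterol synthesis (7) or the cell cycle (12) reached it either, and Rsad2, an interferon-induced antiviral gene, came nearest at 1.48.

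Actin regulators and small GTPase proteins made up 14 genes, 12 of them with the CCG1423 array apart, and in 8 only the lowest probe had moved. Nf2, which encodes merlin, the membrane-cytoskeleton linker upstream of Hippo signalling, was the widest. Its probe A_55_P2740267 had 0.37 with CCG1423, against -3.58 and -3.46 in the clones, -3.50 with TGF-β1 and -3.52 with vehicle. A_55_P2506875 of Nf2 lay between 4.59 and 5.05 on all 5 arrays. Thus 1 of 3 Nf2 probes stood far above the other arrays with CCG1423 and the others did not. Triobp, an actin-bundling protein with distinct long and short forms, had a probe at -3.05 with CCG1423, against 0.76 and 1.05 in the clones, -0.22 with TGF-β1 and 0.18 with vehicle. The 3 other Triobp probes had differences of 0.23 to 0.42. Dock5, an exchange factor for Rac, had 0.49 with CCG1423 for A_52_P88983, against 1.18 to 1.89 on the other arrays, and 1.84 for A_51_P223025, against 1.06 to 1.15. Srgap1 and Fnbp1, both with F-BAR domains that bind curved membranes, had probes that moved 2-fold in opposite directions. For Srgap1 the lowest probe also differed between the clones, with 0.13 with CCG1423, 0.08 in clone 1 and 1.29 in clone 2, against 1.52 with TGF-β1 and 1.68 with vehicle. Mical3, an actin-oxidising enzyme, had 3 probes at -0.25 to -0.21 and 2 probes at 1.04 and 1.56.

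Microtubule and motor genes numbered 7, all with the CCG1423 array apart. Kif1b, a kinesin that carries mitochondria and synaptic vesicle precursors and is made in a long and a short form, had a probe at 0.55 with CCG1423, against -1.10 and -0.67 in the clones, -1.11 with TGF-β1 and -0.90 with vehicle. A_65_P12993 of Kif1b had -2.25, against -1.0 and -0.40 in the clones, -0.37 with TGF-β1 and -0.38 with vehicle, and its 2 remaining probes were 0.49 and 0.71 higher with CCG1423 than with TGF-β1. Ttll5, a tubulin polyglutamylase, had differences of 1.15 and -1.18, but its lowest probe had 0.29 with CCG1423 and 0.40 with vehicle, so it was low on both arrays.

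In membrane traffic, 8 of 12 genes had only the highest probe moved. Arfgef1, an exchange factor for ARF at the Golgi, had 1.74 with CCG1423 for A_52_P513439, against -0.13 to 0.18 on the other 4 arrays, while its other probe had 1.06, against 1.17 to 1.70. Mlph, which encodes melanophilin, the linker of melanosomes to myosin, was a melanocyte gene among them, and its probes also differed between the clones. A_51_P272323 had 0.85 with CCG1423, 1.11 in clone 1 and 3.13 in clone 2, against 1.87 with TGF-β1 and 1.54 with vehicle. Relative to vehicle the gap of Mlph was 1.25 larger with CCG1423, 0.75 larger in clone 1 and different by -0.57 in clone 2.

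All 9 cell-surface and adhesion genes had the CCG1423 array apart, and in 6 only the highest probe had moved. In Cd44, the hyaluronan receptor known for its variable exons, A_55_P2166488 had -0.49 with CCG1423, against -2.57 to -2.48 on the other 4 arrays. A_55_P2912261 of Cd44 had 4.52, against 4.01 to 4.43. Adam17, the sheddase that releases TNF and EGFR ligands, had 0.09 with CCG1423 for A_55_P2612184, against -3.04 to -1.97, and 1.42 for its other probe, against 1.47 to 1.80. Ncam1, a neural adhesion molecule with several isoforms, had 4 probes with differences between -0.75 and 1.67. Ifnar2, a type I interferon receptor subunit made in membrane-bound and soluble forms, had -0.86 for A_51_P338924, against -0.02 to 0.43, and 3.31 for A_52_P190405, against 2.17 to 2.54. Bace2, in no group, is the protease that cleaves the melanosomal protein PMEL, and had 0.89 with CCG1423 for A_51_P481221, against 2.63 to 3.25, and 6.68 for A_55_P2157033, against 6.90 to 7.58.

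Of 12 kinase and phosphatase genes, 8 had the CCG1423 array apart. Csnk1e, casein kinase 1ε, had a probe at -0.50 with CCG1423, against 0.73 to 1.44, while its 2 other probes were 0.10 and 0.16 higher with CCG1423 than with TGF-β1. Lats2, a Hippo pathway kinase, had -0.21 for A_55_P2002351 with CCG1423, against -1.36 and -2.18 in the clones, -2.34 with TGF-β1 and -2.64 with vehicle. In DNA repair, Parpbp, a partner of PARP1 that restrains homologous recombination, had the widest range of the genes with the CCG1423 array apart. Its probe A_66_P127521 gave 211 signal units with CCG1423, against 15.4 units with TGF-β1, and was not well above background on the clone and vehicle arrays. A_65_P20433 of Parpbp had levels of 1.07 with CCG1423, against 0.62 to 1.22 on the other arrays.

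The 9 genes set apart by the TGF-β1 array were Tmem120b, Zfp827, Ap5m1, AW011738, Hdac8, Dgkh, Vps54, Ercc6l2 and Sh3bgrl2. In the first, A_66_P112157 had -3.69 with CCG1423, -4.00 and -3.85 in the clones and -4.06 with vehicle, but 0.47 with TGF-β1. Its other probe lay between 0.63 and 1.15 on all 5 arrays. For A_55_P2521875 of Zfp827 the levels were -2.52 with CCG1423, -3.09 and -3.58 in the clones and -3.38 with vehicle, but 0.44 with TGF-β1. Ercc6l2, a DNA repair helicase, had -0.85 with CCG1423 for A_52_P194464, -2.71 and -3.06 in the clones and -2.76 with vehicle, but 1.19 with TGF-β1. In Tmem120b, Zfp827 and Ercc6l2, 1 probe was highest on the TGF-β1 array. On the CCG1423 array these probes lay above the mean of vehicle and clones too, by 0.28 in Tmem120b, 0.83 in Zfp827 and 1.99 in Ercc6l2. Dgkh had a highest probe at 0.75 and a lowest at -0.99 with CCG1423 against TGF-β1. Its probe A_65_P19133 was also high on the TGF-β1 array, with a log2 difference of -1.64 in the clones against TGF-β1 (SE 0.31). Relative to vehicle, the gap of Dgkh differed by -1.51 with TGF-β1 and by 0.23 with CCG1423.

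The probes of Tmem120b, Zfp827 and Ercc6l2 were also the ones called when the 2 clones were compared with the same TGF-β1 array. In limma's moderated test with Benjamini-Hochberg adjustment, 146 of 30561 probes passed 0.05 (0.478%), and 3 of the 390 probes of the discordant genes did. In the clones against TGF-β1 in wild-type cells, the log2 difference was -4.07 for Ercc6l2 (SE 0.36, limma adjusted p = 0.0185), -4.39 for Tmem120b (SE 0.45, adjusted p = 0.0209) and -3.77 for Zfp827 (SE 0.42, adjusted p = 0.0218). At an unadjusted p under 0.05, 1731 probes passed (5.66%), 29 of them in the discordant genes. The Tmem120b and Zfp827 probes were not well above background in clone 2. This comparison shares its TGF-β1 array with the rule that chose the genes, so it is no separate evidence, and after quantile normalization no probe was called.

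Arrays that the rule did not use gave a test over the 2 clones and vehicle. Of 4732 gene gaps, 0 differed between clones and vehicle in limma's moderated test after Benjamini-Hochberg adjustment (0%), and 0 of the 152 did. The vehicle condition had 1 array and the spread came from 2 clones, so these counts of 0 do not show that the gaps were alike. At an unadjusted p under 0.05 there were 311 gaps in all (6.57%), 30 of them in the discordant genes. The lowest adjusted p among the discordant genes was 0.474, for Zfp493, whose gap was 1.09 larger in the clones (SE 0.11). The knockout and TGF-β1 cannot be told apart in this comparison, since no knockout array was without TGF-β1.

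The clones differed from each other in these genes more than in most. The median absolute difference of the gap between the clones was 0.376 in the 152 genes, against 0.140 over all eligible genes. In 17 of the 152 it reached 1 or more, against 3.23% of all genes. The direction was uneven: the gap was larger in clone 1 than in clone 2, that is nearer the CCG1423 pattern, in 105 of 152 genes (69.1%), against 56.5% of all genes. Relative to vehicle it was larger in clone 1 in 104 genes (68.4%, against 54.7% of all genes) and in clone 2 in 83 (54.6%, against 50.1%). The median shift against vehicle was 1.83 with CCG1423, 0.26 in clone 1 and 0.03 in clone 2. With CCG1423 it was 1.5 or more in 105 of the 152 genes, against 3.17% of all genes, but the rule used the CCG1423 array and nothing is read from that count. The mean of the clones lay 1 or more from vehicle, either way, in 22 genes, against 2.62%. No test was made of this lean, which was noticed after the values were seen. On the vehicle array the probe with the highest difference was the dimmer of the extreme probes in 74.3% of the 152 genes, against 50.3% of all genes. The clone arrays themselves differed in the share of probes well above background, at 54.1% for clone 1 and 50.4% for clone 2. Whether the lean comes from how each array reads dim probes was not tested. Among the discordant genes well above background on all 5 arrays, the gap was larger than on vehicle in 88 of 118 in clone 1 and in 69 of 118 in clone 2. The share over all genes under that filter was not computed.

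**Figure D4:**
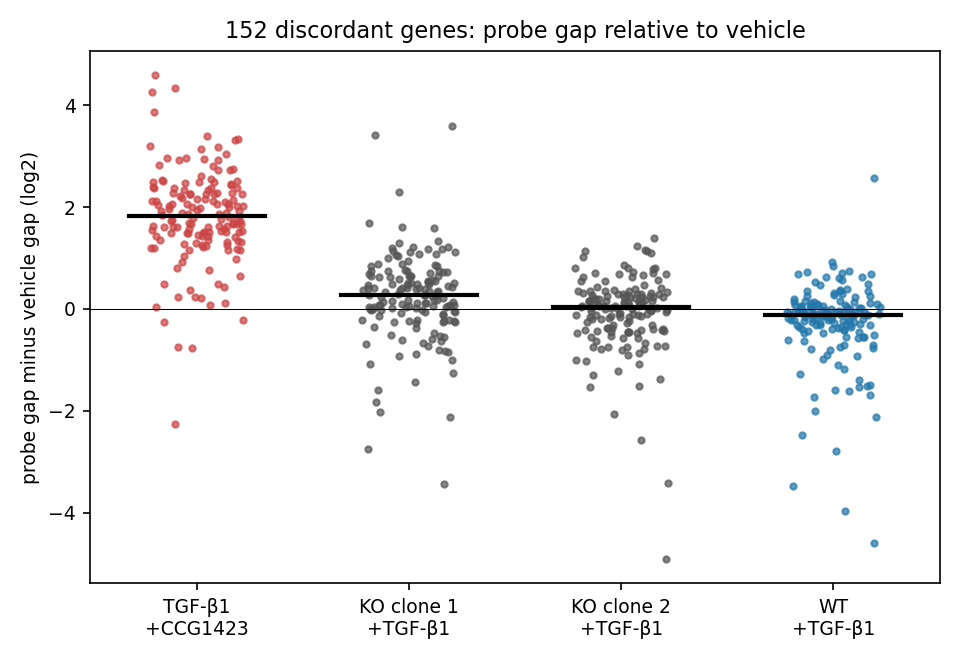
Probe gap of each of the 152 genes minus its gap on the vehicle array, in log2 units, for the CCG1423 array, the 2 clones and the wild-type TGF-β1 array; each point is a gene, black bars are medians and the sideways spread within a column is only for visibility. The medians are 1.83 with CCG1423, 0.26 in clone 1, 0.03 in clone 2 and -0.12 with TGF-β1.

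Single genes carried much larger clone differences. For Cdc14b, a cell cycle phosphatase, A_52_P106294 had -2.28 with CCG1423, -0.29 in clone 1 and -3.57 in clone 2, against -4.24 with TGF-β1 and -3.23 with vehicle. Aatf had -1.59 with CCG1423 and -1.27 in clone 1 for A_55_P2578051, against -3.85 with TGF-β1 and -3.92 with vehicle, and it was not well above background in clone 2. In Nnmt, nicotinamide N-methyltransferase, the order was different. A_55_P2505920 had 2.65 with CCG1423, -2.04 in clone 1 and, not well above background, -3.97 in clone 2, against -0.16 with TGF-β1 and 0.39 with vehicle. Relative to vehicle, the gap of Nnmt was 0.23 larger with CCG1423 and differed by -3.44 and -4.91 in the clones.

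The discordant genes were set beside all eligible genes for features of the gene. Their genomic span in the RefSeq annotation of GRCm38.p6 had a median of 55.6 kb (quartiles 27.3 and 138 kb), against 29.4 kb (13.1 and 67.3 kb) over all 4733 genes. A span over 100 kb was found in 32.2% of them, against 15.6% of all. They had a median of 7 annotated transcripts, against 4. Their extreme probes carried the same transcript accession in 60.5%, against 79.5% of all genes. A range over more probes is wider by construction, and 2.52% of genes with 2 measured probes were discordant, 4.41% with 3, 9.93% with 4 and 20.7% with 5 or more. Long genes stood out within both probe classes. Among genes with 2 probes, 26 of 515 with a span over 100 kb were discordant, against 30 of 1992 with a span of up to 30 kb. Among genes with 3 or more, the counts were 23 of 223 and 12 of 409.

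**Figure D5:**
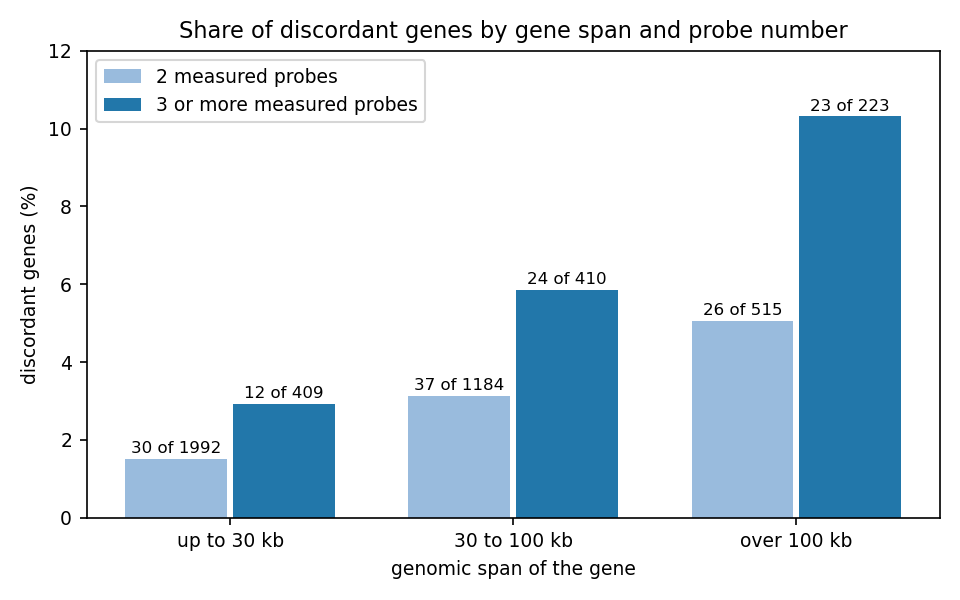
Percentage of genes with discordant probes by genomic span of the gene (up to 30 kb, 30 to 100 kb, over 100 kb), separately for genes with 2 measured probes (light) and 3 or more (dark); the counts above the bars are discordant genes of eligible genes. The share rises with span in both classes, and at each span it is higher with more probes.

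Signal strength went with discordance too. With the 4733 genes in 4 equal bins by the level of the dimmer extreme probe, low to high, 5.49%, 3.63%, 2.70% and 1.01% of genes were discordant. The scanner software's own error for the range had a median of 0.313 in the 152 genes. That error covers the spots of an array, not the difference between separate cultures. In 26 of the 152 genes both extreme probes had levels above the median of measured probes (36.8% of all genes did). Of these 26 genes, 22 had the CCG1423 array apart. The rule used that array, and the share over all genes with both probes above the median was not computed, so nothing is read from this count. The part of weak signal in the discordance was not tested. At the threshold itself, Slc44a1, Ankmy2, Arfgap2, Sft2d2 and Ankfy1 lay just inside, with ranges of 1.5 to 1.51, and Zfp672, Zgrf1, Marcksl1, Twf1 and Inpp4a just outside, with 1.49 to 1.5.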

How the data were processed

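RNA from 5 cultures was hybridised to Agilent mouse arrays with 1 dye. Per the file headers, the authors' intensity values came out of Agilent Feature Extraction 12.0.3.1; the deposited processed signal intensity is background-subtracted, and its flags (other values) mark outliers and probes well above background. The deposited value table was set against it and equals the processed signal times a constant per array. Levels are log2 processed signal, spots of a probe averaged and feature outliers left out, minus each array's 75th percentile. Of 56595 probes, 32988 had a gene through unversioned accessions in the RefSeq table of GRCm38.p6, which gave 22911 genes, 7899 with several probes. The headers name another build, so no coordinates are given, and probe sequences were not used here. The members, gene lists and rules were chosen with earlier results of these data known. Genes named are Arhgap21 and Sfpq, the 25 widest with both extreme probes above the median level, the 10 widest with probes 2-fold apart in opposite directions, 5 on each side of the threshold, members of 12 lists (the result of 1 list is not reported here) and those with a limma call; others were chosen after their values were seen.

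limma 3.58.1 in R 4.3.3 (lmFit, eBayes with trend, 4 groups, Benjamini-Hochberg 0.05) was checked on simulated data; other steps used Python 3.11.15. Its spread comes from 2 clones, which limits precision. Alternatives were normexp background correction (offset 50), quantile normalization, the deposited table, outliers kept, other thresholds and other filters. The design called for mean signal in normexp; the files used here hold the median signal, which replaced it.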

Additional observations from a re-analysis of the deposited data

How the results depend on the processing

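The number of discordant genes, 152, was 62 after normexp correction of the median signal (60 of them among the 152), 99 of 4053 when probes had to share an accession and 18 of 1853 when both probes had to reach the median level. It was 395 at a range of 1 or more and 62 at 2 or more. It moved by less than 1.5 times with quantile normalization (153, of which 143 were among the 152), the deposited table (152), outlier spots kept (152) and probes above background on all 5 arrays (118). The 111 genes with the CCG1423 array apart became 65 with normexp and 111 or 112 with quantile normalization, the deposited table or outliers kept. With 1 clone left out at a time, they numbered 125 without clone 1 and 113 without clone 2. Discordant genes whose mean clone gap lay 1 or more from vehicle numbered 22. By the gap of the remaining clone alone, they numbered 19 without clone 1 and 30 without clone 2. The 146 probes called between the clones and TGF-β1 became 388 without the trend, 274 with normexp, 8 with probes above background on all 3 arrays and 0 with quantile normalization; of the discordant genes' probes, 3, 4, 1 and 0 were called. No gap was called between clones and vehicle under any of these fits.

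Of 40 named genes, 28 kept a range of 1.5 or more with normexp (lowest 0.77) and 37 with quantile normalization (lowest 1.37), and none reversed. The clone 1 lean held with both: 101 and 106 of 152 genes above vehicle (66.4% and 69.7%), against 54.6% and 53.4% of all genes. Fits leaving out a clone have no residual degrees of freedom and were not run. No paired analysis was possible because each wild-type condition has 1 array and the knockout numbers name clones. Dim probes limit the rest, and CCG1423 has no replicate.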
